A study of Mus musculus with 2 samples.

Results

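The p53 target and apoptosis genes described here are 9 genes: Mdm2, Ccng1, Bax, Bbc3, Phlda3, Trp53inp1, Gadd45a, Gadd45b and Fas. They were chosen by name, with earlier results of these data known, and 8 of them had a probe set assigned to that gene alone among 18194 such genes on the array. Liver RNA from 3 FLS mice and from 3 DS mice, 19 weeks of age, was pooled by strain and each pool was hybridized to 1 Affymetrix array covering the mouse genome. FLS (Fatty liver Shionogi) mice were the model of nonalcoholic steatohepatitis (NASH), and DS (dd Shionogi) mice, a sister strain, were the reference and the model of simple steatosis. Both are inbred strains from separate lines of the outbred ddN colony, both received the standard CE-2 pellet diet, and the livers of both were perfused with saline before removal. The labels give no treatment and no sex. Pooling leaves no spread between mice, and with 1 array per strain no test was possible and the array and the strain cannot be told apart.

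The transcription factor p53 is stabilized when DNA is damaged or ribosome assembly is disturbed, and it switches on genes that stop the cell cycle, help repair DNA or start apoptosis. Mdm2 is the ubiquitin ligase that marks p53 for degradation, so that p53 induces its own inhibitor. Bax and Bbc3 (PUMA) open the mitochondrial route to apoptosis, and Fas is the receptor through which Fas ligand kills hepatocytes. Because p53 is controlled mainly at the level of the protein, the messenger RNA of its target genes is often read as a sign of its activity, although most of these genes also answer to other factors.

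The signals are linear intensities, and the FLS/DS ratio is the signal of the FLS pool divided by that of the DS pool. A signal under 200 was treated as too low to be read exactly. Where 1 of the signals was under 200, the ratio is a bound, given as the fold obtained with the low signal set to 200. A gene was counted as measured if it reached 200 in at least 1 pool, which held for 9160 genes and for all 8 genes with a probe set. The median FLS/DS ratio of the measured genes was 1.02, and the 5th to 95th percentiles ran from 0.710 to 1.53. Among probe sets with a signal of at least 200 in both pools, those of 1 gene differed in log2 ratio by a pooled SD of 0.22, or 1.16-fold, over 2790 genes. Dimmer probe sets are not part of this spread.

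Phlda3, Mdm2 and Ccng1 were at least 1.5-fold higher in the FLS pool than in the DS pool, and none of the 8 genes was 1.5-fold lower. Trp53inp1, Gadd45b, Bbc3 and Fas had ratios between 1.04 and 1.21, and Gadd45a was the only one of the 8 with a ratio below 1. The 3 of 8 genes at least 1.5-fold higher stand beside 5.35% of all measured genes, and the 0 of 8 genes lower by that fold beside 3.54%. With the median over every probe set of each gene, Mdm2 and Ccng1 fell short. The count was then 1 of 8 higher, beside 3.70% of all measured genes. At 2-fold, 1 gene (Phlda3, by its measured signals) was higher, beside 1.89% of all measured genes, and none was lower, beside 1.3%. Taken over the 8 genes, the log2 ratio had a median of 0.24, against 0.03 over all measured genes.

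Mdm2 lies on chromosome 10 (chr10:117688875-117710758). The brightest Mdm2 probe set read 739 in FLS and 463 in DS, a ratio of 1.60. Of all measured genes, 4.15% had a ratio at least as high. A second Mdm2 probe set read 286 and 240, a ratio of 1.19, and the third was under 200 in both pools (64.1 and 67.6). The higher reading in the FLS pool was thus seen with both Mdm2 probe sets that had a signal, but only the brighter one passed 1.5-fold, and the median of both ratios was 1.38.

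Ccng1 encodes cyclin G1, which recruits a phosphatase to Mdm2 and so takes part in the same feedback on p53. The gene lies on chromosome 11 (chr11:40748552-40755309). Its signal was 1197 in FLS and 756 in DS, a ratio of 1.58, and 4.30% of measured genes were at least as high. The 2 further probe sets of Ccng1 read 701 against 487 and 648 against 445, ratios of 1.44 and 1.46. All 3 probe sets of Ccng1 therefore lay well above 200 in both pools and were higher in the FLS pool, but only the brightest passed 1.5-fold.

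Phlda3 encodes a small pleckstrin homology domain protein that competes with the kinase Akt for membrane lipids and thereby weakens a survival signal. It lies on chromosome 1 (chr1:135766085-135769134) and had 1 probe set. The signal was 362 in FLS and 140 in DS, a measured ratio of 2.58, which 0.993% of measured genes reached. Since the DS signal was under 200, Phlda3 was at least 1.81-fold higher in the FLS pool.

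The sequences upstream of these 3 genes and of Gadd45a are shown because the 3 had the highest ratios of the 8 and Gadd45a the lowest. They are the 250 bases before the transcription start in RefSeq on GRCm38.p6, written 5′ to 3′ on the strand of the gene. The windows are chr10:117710759-117711008 (minus strand) for Mdm2, chr11:40755287-40755536 (minus strand) for Ccng1, chr1:135765835-135766084 (plus strand) for Phlda3 and chr6:67037408-67037657 (minus strand) for Gadd45a. Capitals mark an exact match to the p53 decamer, the 10-base unit that a p53 dimer binds: 3 purines, a C, 2 bases that are A or T, a G and 3 pyrimidines. The decamer is its own reverse complement, so that 1 search covers both strands.
Mdm2: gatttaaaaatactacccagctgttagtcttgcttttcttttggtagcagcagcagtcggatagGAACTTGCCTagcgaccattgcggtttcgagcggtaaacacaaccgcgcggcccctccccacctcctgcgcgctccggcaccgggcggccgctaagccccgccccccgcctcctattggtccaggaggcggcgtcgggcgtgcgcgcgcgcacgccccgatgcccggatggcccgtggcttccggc
Ccng1: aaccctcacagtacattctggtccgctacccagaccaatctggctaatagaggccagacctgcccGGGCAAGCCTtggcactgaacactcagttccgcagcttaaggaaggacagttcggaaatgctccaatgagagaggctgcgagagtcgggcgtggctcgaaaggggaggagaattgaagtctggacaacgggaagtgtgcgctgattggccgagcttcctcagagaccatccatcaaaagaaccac
Phlda3: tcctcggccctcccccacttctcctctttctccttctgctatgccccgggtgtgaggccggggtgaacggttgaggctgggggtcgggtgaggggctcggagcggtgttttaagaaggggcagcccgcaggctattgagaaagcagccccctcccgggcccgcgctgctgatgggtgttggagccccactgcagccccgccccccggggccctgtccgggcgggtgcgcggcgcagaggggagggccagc
Gadd45a: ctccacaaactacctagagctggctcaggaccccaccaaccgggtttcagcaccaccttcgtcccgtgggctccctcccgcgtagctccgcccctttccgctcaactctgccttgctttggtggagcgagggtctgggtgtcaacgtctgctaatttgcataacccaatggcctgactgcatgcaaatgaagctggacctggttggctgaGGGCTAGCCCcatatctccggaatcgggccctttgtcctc

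An exact decamer began 186 bases before the start of Mdm2, 185 before that of Ccng1 and 40 before that of Gadd45a, and none was found before Phlda3. Bax also held one, 201 bases before its start. The searched windows reach from 250 bases before to 50 bases after each start, and 8 of the 9 genes had such a window, Trp53inp1 being the exception. Thus 4 of 8 genes held an exact decamer, beside 9.55% of 27025 genes with a window and 8.36% of all 32851 windows. A p53 tetramer binds a pair of decamers, and pairs up to 13 bases apart, with up to 1 mismatch in each decamer, were present before Ccng1 and Bax, beside 7.68% of all genes and 6.72% of all windows. The pair is shown for both, followed by the exact pair of Cdkn1a, the p53 target with the highest ratio among the genes listed below. The Ccng1 pair (chr11:40755462-40755481, minus strand) has no bases between its decamers, that of Bax (chr7:45467090-45467110, minus strand) has 1 and that of Cdkn1a (chr17:29090906-29090937, plus strand) has 12, in lower case.
Ccng1 pair: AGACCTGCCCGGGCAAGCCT
Bax pair: AAGCATATCCcAGGCAAGCTT
Cdkn1a pair: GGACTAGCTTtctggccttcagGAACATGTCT

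The Ccng1 and Bax pairs each held 1 mismatch, and the Cdkn1a pair shown held none. A second Cdkn1a pair (chr17:29090928-29090947), which shares a decamer with the one shown, has no bases between its decamers and held 1 mismatch. Another Cdkn1a window (chr17:29093519-29093818) held neither an exact decamer nor a pair. An exact pair was found in 24 of all windows, 0.0731%, and in none of those of the 8 genes. These matches describe the letters of the reference windows, which leave out more distant sequence, and the arrays do not measure binding of p53. The searched Phlda3 window ends in gaacatgt, which fits the start of a decamer, and the bases after it were not searched.

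**Figure D1:**
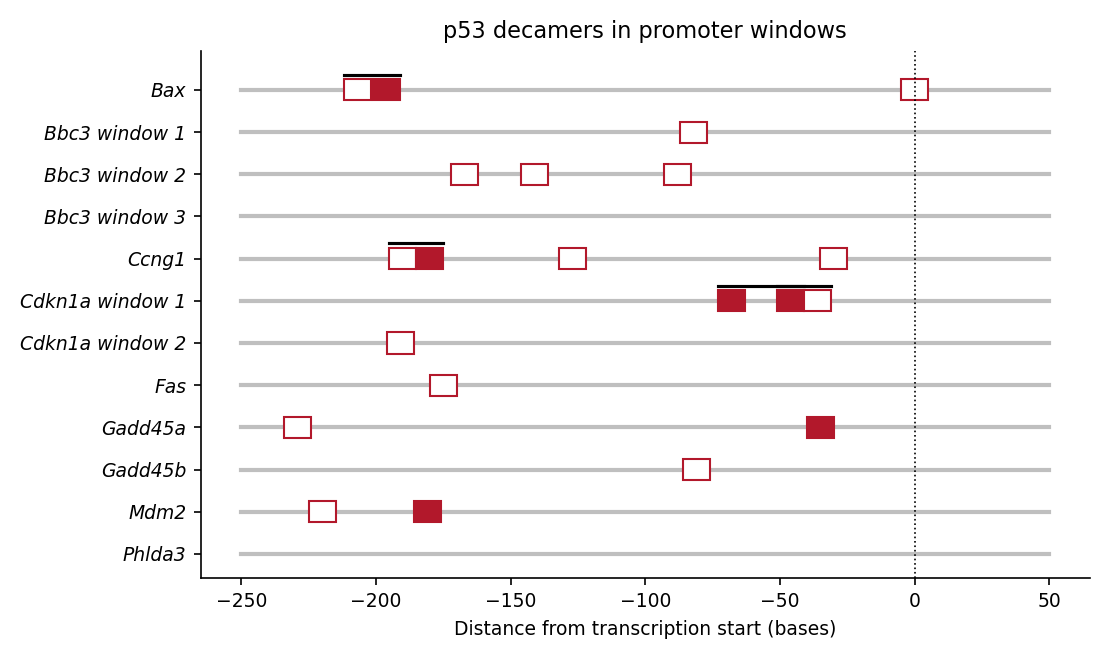
Positions of p53 decamers in the RefSeq promoter windows of 8 of the genes and of Cdkn1a, by distance from the transcription start in bases. Filled boxes are exact decamers, open boxes have 1 mismatch, and a black line spans a pair; exact decamers stand before Bax, Ccng1, Gadd45a, Mdm2 and Cdkn1a, and Phlda3 holds no box.

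Bbc3 and Fas, which start apoptosis, had ratios close to 1. Bbc3, a BH3-only protein that frees Bax and its relatives from their inhibitors, lies on chromosome 7 (chr7:16308398-16318334). Its signal was 241 in FLS and 226 in DS, close to the limit of 200 in both, and the ratio was 1.07. Fas lies on chromosome 19 (chr19:34290647-34327775) and read 366 in FLS and 350 in DS, a ratio of 1.04. The ratios of both were within the 1.16-fold spread between probe sets of 1 gene. Bax, the pore-forming protein of the mitochondrial membrane, lies on chromosome 7 (chr7:45461695-45466903). No probe set was matched to Bax alone, and its level was not analysed here.

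Trp53inp1 encodes a nuclear protein that aids the phosphorylation of p53 and also acts in autophagy. It lies on chromosome 4 (chr4:11156441-11174379) and read 3571 in FLS and 3086 in DS. The ratio was 1.16, also within the spread between probe sets of 1 gene, and 26.3% of measured genes were at least as high. A second Trp53inp1 probe set was under 200 in both pools, at 118 and 120. Such signals cannot be compared between genes as amounts of RNA, because probes differ in how strongly they bind.

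Gadd45a and Gadd45b encode small acidic proteins that bind MAP3K4, PCNA and the CDK1-cyclin B1 complex and act in growth arrest and stress signalling. Gadd45a, the member of the family most closely tied to p53, lies on chromosome 6 (chr6:67035096-67037407). Its only probe set read 169 in FLS and 221 in DS, a measured ratio of 0.763. As the FLS signal was under 200, Gadd45a was lower in the FLS pool by at least 1.10-fold, and 7.61% of measured genes had a measured ratio at least as low.

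Gadd45b, which is known mainly as a target of NF-kappaB and TGF-beta signalling, lies on chromosome 10 (chr10:80930091-80932204). Its brightest probe set read 514 in FLS and 426 in DS, a ratio of 1.21. A second one, whose name ends in _s_at and which may therefore match more than 1 transcript, read 380 and 109, at least 1.90-fold higher in the FLS pool. The third Gadd45b probe set was under 200 in both pools, at 109 and 113. The 2 probe sets of Gadd45b with a signal agreed in direction but not in size.

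**Figure D2:**
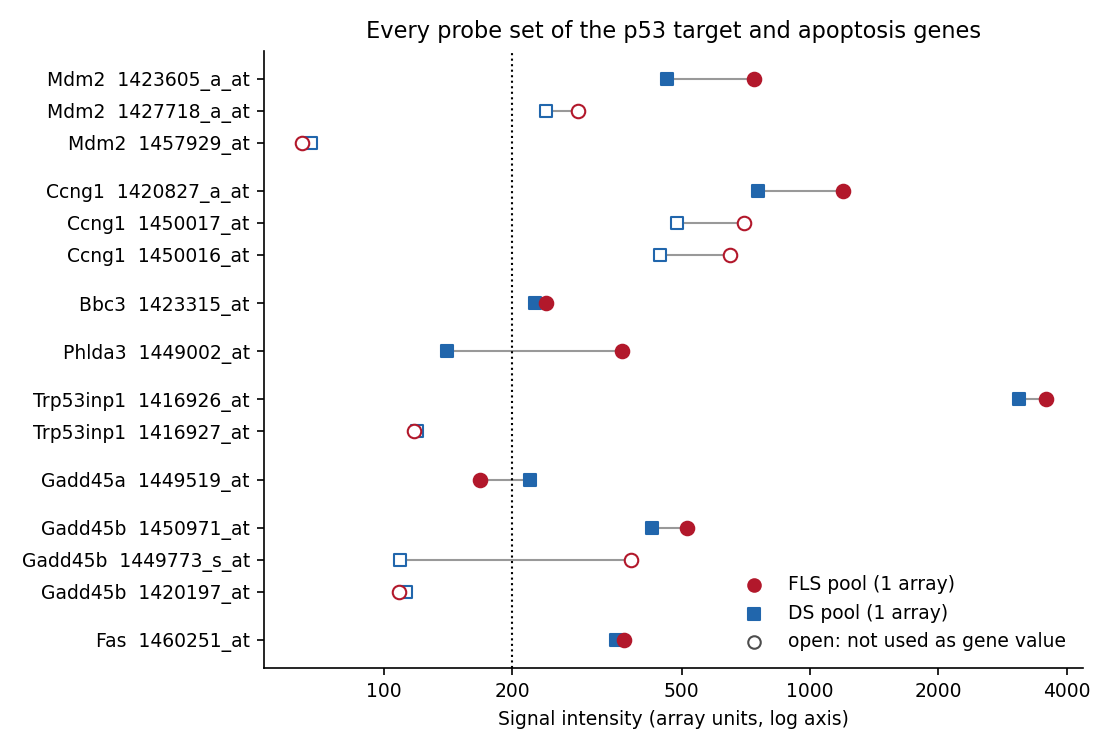
Signal intensity of all 15 probe sets of the 8 genes in FLS (circles) and DS (squares) on a log axis, 1 array each, with the limit of 200 dotted and open symbols for probe sets not used as the gene value. The circle lies to the right of the square for 11 of the 12 probe sets that reach 200 in at least 1 pool, the exception being Gadd45a. Several of these probe sets belong to the same gene and are not replicates. Of all measured genes, 54.6% had a ratio above 1.

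Over the 8 genes, 12 of 15 probe sets reached 200 in at least 1 pool and 9 in both. The probe sets of a gene share the same RNA and are not replicates. When every ratio was divided by the Actb ratio of 0.867 (6891 in FLS and 7944 in DS), the median over all measured genes became 0.24 (log2), and any ratio between 0.867 and 1 passed to above 1. On that scale 13% of measured genes, in place of 5.35%, had a 1.5-fold higher signal in FLS, and of the genes past 2-fold 269 were higher and 92 lower, 74.5% on the higher side. Without it these were 173 and 119, or 59.2%. Under the deposited scale and 4 others the ratio of Phlda3 ran from 2.58 to 2.98, that of Mdm2 from 1.55 to 1.84 and that of Ccng1 from 1.53 to 1.83, while Gadd45a stayed below 1 (0.763 to 0.880) and Fas at or above it (1.00 to 1.20).

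**Figure D3:**
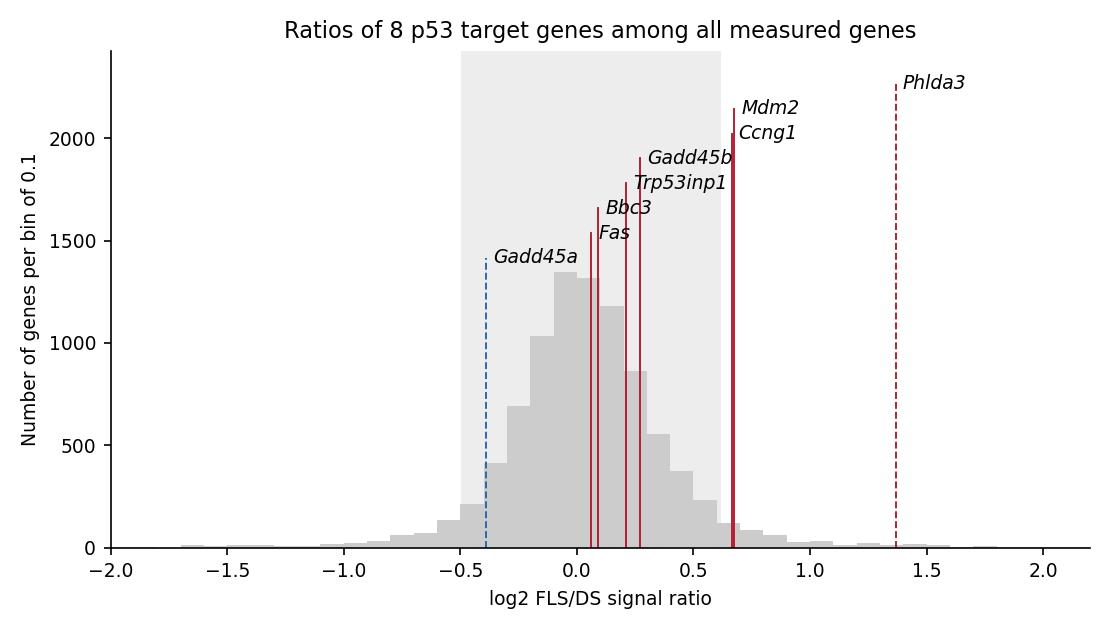
Histogram of the log2 FLS/DS ratio of measured genes (number of genes per bin), with the 5th to 95th percentiles shaded and a line for each of the 8 genes, dashed where the ratio is a bound; genes beyond the ends of the axis are not drawn. Phlda3, Mdm2 and Ccng1 lie to the right of the shaded range and the other 5 inside it.

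**Figure D4:**
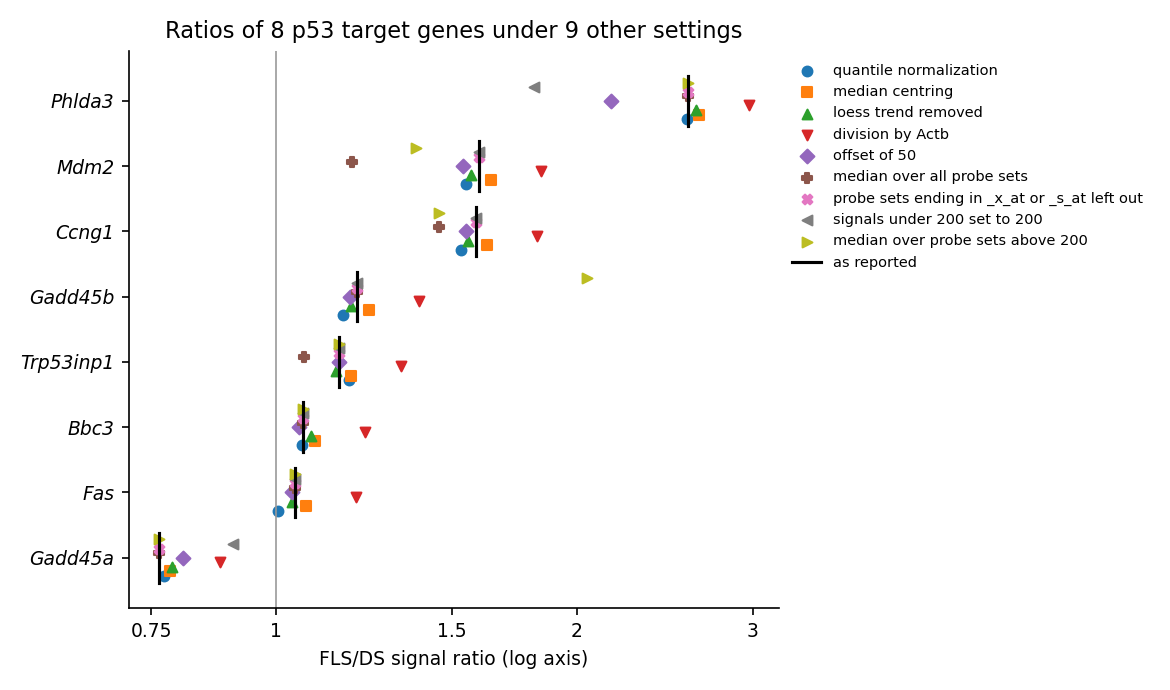
FLS/DS ratio of each of the 8 genes on a log axis, as reported (black bar) and under 9 other ways of scaling or summarizing the signals (symbols). Gadd45a stays to the left of 1 and the other 7 to the right throughout, and Phlda3, Mdm2 and Gadd45b have the widest spread.

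Most of the measured genes that control p53 had a ratio above 1, many by a small margin. Of 27 such genes listed, 18 were measured, and 17 of them had a ratio above 1 (54.6% of all measured genes did). None was 1.5-fold higher, beside 5.35% of all measured genes, or lower by that fold, beside 3.54%. The ratios ran from 0.963 to 1.44, and the median log2 ratio was 0.17, or 0.15 over all 25 with a probe set. Both medians are within the pooled SD of 0.22 between probe sets of 1 gene. The highest ratios were those of Ppp1r13b (ASPP1, which directs p53 to apoptotic genes; 405 in FLS and 282 in DS, ratio 1.44) and of the acetyltransferase Ep300 (601 and 435, ratio 1.38). The deacetylase Sirt1, with 317 and 245, and the damage-response protein Trp53bp1, with 351 and 271, both had a ratio of 1.29. The other probe sets of Trp53bp1 were under 200 in both pools. No probe set was matched to Trp53 alone, so the RNA of p53 itself was not analysed here.

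Among 45 other p53 target genes, 28 were measured. Of these, 5 were past 1.5-fold in favour of FLS (5.35% of all measured genes were) and 1 in favour of DS (3.54%). Their median log2 ratio was 0.18 over the measured genes, 0.014 over all 43 with a probe set and -0.0061 with the median over the probe sets of each gene. Cdkn1a, the p21 inhibitor of cyclin-dependent kinases and the best known p53 target, gave 757 in FLS and 149 in DS, at least 3.78-fold higher. Its second probe set read 617 and 156. By its measured ratio of 5.07, 0.229% of measured genes were at least as high. The fold of Cdkn1a cannot be ranked against that of Phlda3, since both are lower bounds.

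Ptp4a3, a phosphatase of the PRL family, read 405 in FLS and 220 in DS, a ratio of 1.84. Aen, a nuclease active in apoptosis, read 540 and 335, a ratio of 1.61, while another of its probe sets gave 0.863 (263 and 305). The remaining 2 of the 5, Slc19a2 (a thiamine transporter, ratio 1.61) and Siva1 (ratio 1.56), were chosen after their values were seen. The 1 gene that was lower was Plk3, a stress-responsive kinase, with 758 in FLS and 1400 in DS, a ratio of 0.541. The other p53 targets thus lay on both sides of 1, 16 of 28 measured (57.1%) above and 12 below, beside 54.6% of all measured genes above.

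The BCL2 family showed no 1.5-fold difference, beside 5.35% of all measured genes higher and 3.54% lower by that fold. Its medians changed sign, to 0.18 and 0.14, when divided by the Actb ratio. Both stayed below the median over all measured genes, which was 0.24 on that scale and 0.03 before. Of the pro-survival members 3 of 8 were measured, with a median log2 ratio of -0.03: Bcl2l1 (Bcl-xL) had a ratio of 1.38 (995 in FLS and 722 in DS), Mcl1 0.981 (1911 and 1948) and Bcl2l2 0.912 (354 and 389). The further 5 probe sets of Mcl1, all above 200, had ratios from 0.880 to 1.16, 4 of them above 1. Of the other pro-apoptotic members 8 of 13 were measured, 6 of them with a ratio below 1, and the median log2 ratio was -0.06. The hypoxia- and mitophagy-related Bnip3 had the lowest ratio, 0.797 (4656 and 5842), and Bik the highest, 1.20 (343 and 287), although the other probe sets of Bik gave 0.950 (265 and 279) and 0.908 (204 and 225). Bcl2l14 had a ratio of 0.897 (225 and 251) and Bad, which growth factor signalling inactivates, 0.943 (1502 and 1593).

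In the death receptor pathway, downstream of Fas and its relatives, 16 of 23 genes were measured, with a median log2 ratio of 0.10. At least 1.5-fold higher was 1 gene, beside 5.35% of all measured genes, and none was lower by that fold, beside 3.54%. The 1 gene was Mlkl, the effector of necroptosis, with 207 in FLS and 124 in DS; with the DS signal at the limit it was at least 1.04-fold higher. Daxx, which binds the tail of Fas, had a ratio of 1.42 (387 and 273), and the TNF receptor Tnfrsf1a 1.32 (1371 and 1041). The adaptor Fadd, with 252 in FLS and 199 in DS, was at least 1.26-fold higher. Fasl, the ligand of Fas, was under 200 in both pools.

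Of 21 caspases and apoptosome genes 14 were measured, with a median log2 ratio of 0.14. At least 2-fold higher was 1 gene, beside 1.89% of all measured genes, and none was 1.5-fold lower, beside 3.54%. Casp6, an executioner caspase, read 1125 in FLS and 531 in DS, a ratio of 2.12, while its other probe set was under 200 in both. Cycs, cytochrome c, had the lowest ratio, 0.705 (4698 and 6665). Further Cycs probe sets above 200 gave 0.630 (3898 and 6191) and 0.658 (2269 and 3449), each more than 1.5-fold lower. The mitochondrial nuclease Endog had a ratio of 1.24 (1022 and 827) and the protease Htra2 1.20 (334 and 278).

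Close relatives of the 9 genes had the lowest median of all the lists. Gadd45g, the third GADD45 gene, read 323 in FLS and 2235 in DS, a ratio of 0.144 or 6.93-fold lower, and 0.131% of measured genes were at least as low. It had 1 probe set. Phlda1 had a ratio of 0.385 (2239 and 5823), Trp53inp2 0.650 (1448 and 2229) and Ccng2 0.761 (452 and 593). A second Trp53inp2 probe set gave 1.29 (228 and 177). Of the 7 relatives listed 5 were measured, with a median log2 ratio of -0.62. Lower by at least 1.5-fold were 3 of the 5, beside 3.54% of all measured genes. Of these 3, 2 were past 2-fold, beside 1.3% of all measured genes. Gadd45g and Gadd45a were below 1 and Gadd45b above it, while Mdm4, like Mdm2, was above 1 (401 and 366, ratio 1.10).

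Among the genes that work with the GADD45 proteins, 9 of 12 were measured when Gadd45g is counted. Of these 9, 2 were at least 1.5-fold lower, beside 3.54% of all measured genes, and none was higher, beside 5.35%. The list median was -0.03 (log2), or 0.17 when divided by the Actb ratio, which put the median over all measured genes at 0.24. The kinase Map2k6, which activates p38, had a ratio of 0.656 (417 in FLS and 636 in DS), and Map2k3, which does the same, 0.805 (1445 and 1795). A second Map2k3 probe set gave 0.673 (344 and 512). Mapk8 (JNK1) had a ratio of 1.33 (577 and 434), and a second probe set above 200 gave 0.874 (205 and 234).

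**Figure D5:**
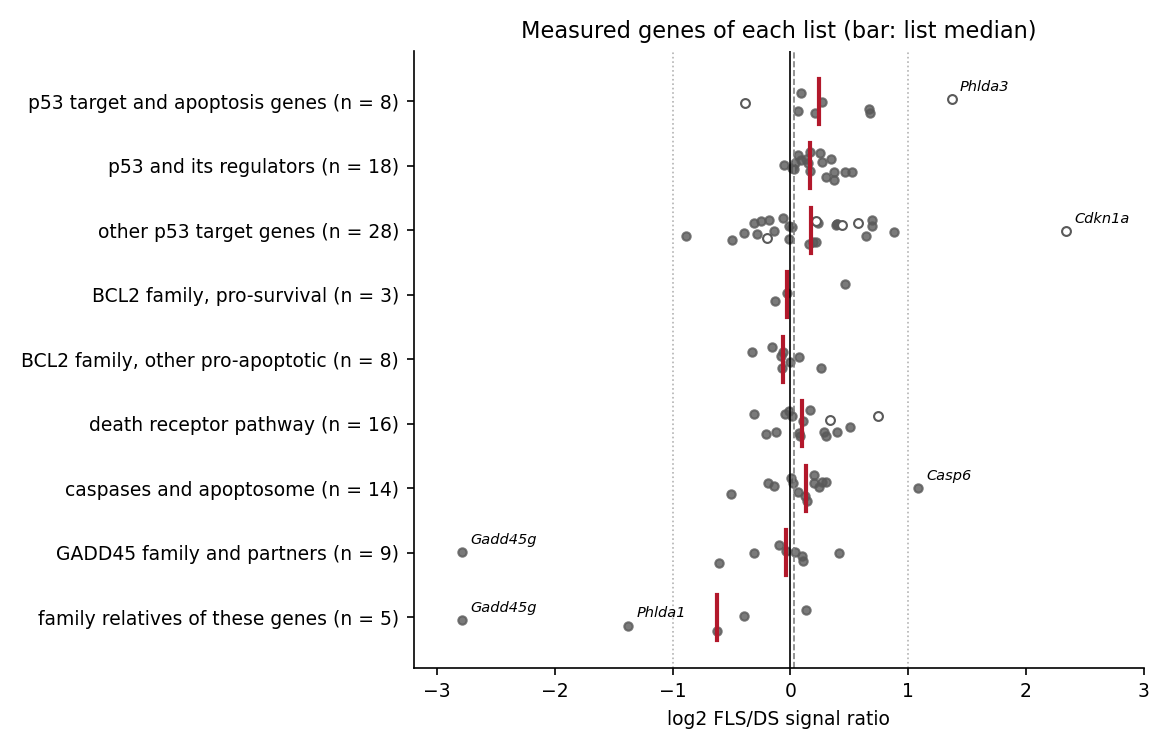
Log2 FLS/DS ratio of each measured gene (points, open where the ratio is a bound) in the 8 p53 target and apoptosis genes and the 8 other lists, with the list median as a red bar, the median of all measured genes dashed and 2-fold dotted. Medians lie between -0.06 and 0.24 except for the family relatives, at -0.62; Gadd45g appears in 2 lists.

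In whole liver, fewer cells of a type and less RNA per cell cannot be told apart. The 9 measured hepatocyte markers summed to 183877 in FLS and 179720 in DS, with a median ratio of 1.03, and the labelled tissue showed its defining transcripts. The sums that follow are over measured markers only. Kupffer cell and macrophage markers (8 of 9 with a probe set) summed to 4555 in FLS and 6025 in DS, and 7 of the 8 had a ratio below 1. Stellate cell markers (7 of 10) summed to 6738 and 4731, and 4 of the 7 had a ratio above 1. Neutrophil markers (3 of 8) summed to 703 and 721, T, B and NK cell markers (2 of 10) to 404 and 440 and cycling cell markers (3 of 9) to 714 and 761. Endothelial markers (6 of 8) summed to 6182 and 5584, and 4 of the 6 had a ratio above 1. Cholangiocyte markers (2 of 5) summed to 547 and 351, and 1 of the 2 had a ratio above 1. That 1 was Sox9 (365 and 140), while Epcam was lower in the FLS pool (182 and 211). The remaining markers were under 200 in both pools. The part of these cell types in the ratios of the p53 target genes was not tested.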

How the data were processed

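Liver RNA of 3 FLS mice and 3 DS mice was pooled by strain and hybridized to 2 arrays. The authors normalized the arrays and summarized each probe set by MBEI (PM-only), a model of the perfect-match probes, and the deposited intensities are linear. Of tools, the submitters' processing notes list affy, with no version. The sources used here do not state how 1 array was scaled to the other. The intensities were taken as they stand, with medians of 120.3 (FLS) and 125.2 (DS). Of 45101 probe sets 34958 had 1 gene symbol, 932 had several and were not used for gene values, and 9211 were unnamed. Symbols were updated by Entrez gene number for 34754 probe sets in a RefSeq table (GRCm38.p6). Each gene took the ratio of whichever probe set was brightest on average.

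The genes and lists were chosen with earlier results of these data known. The text names the 9 genes, Cdkn1a and Trp53, and up to 4 measured genes per list with the largest absolute log2 ratio; any other gene was picked out after its values were seen. Some genes stand in more than 1 list. The 12 alternatives comprised 4 scalings, an offset of 50, other signal limits and other ways to summarize probe sets, and 2 of them were chosen after the data were seen. A list median was taken to move at a shift over 0.1 (log2), a count at 1.5 times, and a ratio at the pooled SD between probe sets of a gene. The calculations were tested on simulated data. The loess trend (fraction 0.4) was fitted with statsmodels 0.14.6, and pandas 2.3.3, numpy 2.4.6 and matplotlib 3.10.9 were used in Python 3.11.15. The number of arrays, 1 per strain, limits the precision. Protein sequences and the other measurements of the study were not analysed here.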

Additional observations from a re-analysis of the deposited data

How the results depend on the processing

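No paired analysis was possible because each strain had 1 array. No ratio of the 8 genes changed direction, while the medians of both BCL2 lists, the GADD45 list and the other p53 targets changed sign under at least 1 setting, and 67 of 72 ratios, 43 of 48 counts and 79 of 99 list medians stayed within the spread set for them. Part of this tally was fixed in advance. Division by Actb raises every log2 ratio equally, by less than the limit for a ratio and more than that for a list median. It took the median over all measured genes from 0.03 to 0.24. Median centring also shifts all ratios equally, by less than either limit. The 4 genes with 1 probe set cannot change with the way probe sets are combined. The count of p53 target and apoptosis genes at least 1.5-fold higher was 1 with the median over every probe set of each gene, where Mdm2 had a ratio of 1.19 and Ccng1 one of 1.46, so that both lost the 1.5-fold call. They also lost it with the median over probe sets above 200, at 1.38 and 1.46, where Gadd45b gained it. The count at least 2-fold higher was 0 with a signal limit of 500, 0 with the limit required in both pools and 0 with signals under 200 set to 200, and it was 2 with the median over probe sets above 200, Gadd45b having a ratio of 2.05. Phlda3 had a ratio of 2.17 with an offset of 50 and 1.81 with signals under 200 set to 200, which also brought Gadd45a to 0.905. Setting low signals to 200 and taking the median over probe sets above 200 were chosen after seeing the data.

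Division by Actb raised the median log2 ratios to 0.45 for the p53 target and apoptosis genes, 0.37 for p53 and its regulators, 0.38 for other p53 targets, 0.18 for pro-survival and 0.14 for other pro-apoptotic BCL2 members, 0.30 for death receptors, 0.34 for caspases, 0.17 for the GADD45 list and -0.42 for the family relatives. It raised the number of measured genes at least 1.5-fold higher from 490 to 1191 and lowered the number at least 1.5-fold lower from 324 to 179; 269 in place of 173 were at least 2-fold higher. The median over all probe sets gave -0.0061 for other p53 targets, -0.14 for the GADD45 list and -0.41 for the relatives. The limit of 500 gave 0.47 for the p53 target and apoptosis genes, -0.0085 for other p53 targets, 0.22 for pro-survival BCL2 members and -1.0 for the relatives, with 310 genes at least 1.5-fold higher. With no limit, other p53 targets had 0.014 and the relatives -0.39. The median over probe sets above 200 gave 0.11 for pro-survival BCL2 members and -0.41 for the relatives. A limit in both pools left 104 genes at least 2-fold higher. Low signal limits what can be said of Phlda3, Gadd45a, Bbc3, Mlkl and Cdkn1a, each of which was near or under 200 in at least 1 pool.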

Other observations

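Some genes of the p53 and apoptosis lists were covered only by probe sets that carry several gene symbols, so that their signals cannot be assigned to 1 gene. Those shared by Rpl5, a ribosomal protein that binds Mdm2, and a pseudogene of it disagreed: the brightest read 9401 in FLS and 10131 in DS, a ratio of 0.928, while the other 2 read 716 against 362 and 410 against 225, ratios of 1.98 and 1.82. The 3 probe sets shared by Bnip3l, a mitophagy receptor, and its pseudogene had ratios of 1.06, 1.14 and 1.29. The probe set shared by Moap1, which binds Bax, and a predicted gene had a ratio of 1.03 (341 and 329), and the brighter one that names the cytokine gene Tnfsf12 had 0.822 (241 and 293). The probe sets shared by the Bcl2a1 genes, pro-survival members of the BCL2 family, were all under 200 in both pools.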
